A study of Mus musculus with 14 samples.

Results

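Genes that mark or equip tuft cells were followed in whole colon of Flox and GR iKO mice with and without acute colitis. The 10 genes were Dclk1, Trpm5, Il25, Pou2f3, Avil, Alox5, Ltc4s, Gnat3, Sh2d6 and Hpgds, and their probes were found through the RefSeq transcript that each array probe carries. Of the 10 genes, 8 had a probe (15 probes in all) and 7 were measured well enough to be tested (14 probes), out of 15535 genes tested on the array. RNA came from the colon of 14 female C57BL/6 mice aged 4 to 6 months and kept on chow, with 1 mouse on each 1-colour array. In Flox mice both alleles of Nr3c1, the gene of the glucocorticoid receptor (GR), are floxed. GR iKO mice carry the same floxed alleles together with a Villin-cre transgene, whose promoter is active in the intestinal epithelium, so that GR is deleted there and not in the other cells of the colon wall. Mice of both genotypes drank regular water (n = 4 Flox and n = 4 GR iKO) or water with 2.5% dextran sulfate sodium (DSS), an agent that injures the colonic epithelium, for 7 days (n = 3 Flox and n = 3 GR iKO).

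Tuft cells are rare chemosensory cells scattered through the intestinal epithelium. They sense luminal signals through a cascade shared with taste cells, in which a receptor acts through G proteins (Gnat3 encodes the alpha subunit gustducin) and phospholipase C to open the cation channel Trpm5. Activated tuft cells release interleukin 25 (Il25), which acts on group 2 innate lymphoid cells, and cysteinyl leukotrienes made by Alox5 and Ltc4s. Interleukin 13 from the lymphoid cells then acts back on the crypt to raise tuft and goblet cell numbers. Pou2f3 is the transcription factor that specifies the lineage, Dclk1 is a microtubule-associated kinase used as its marker, Avil encodes the actin-binding protein advillin, Sh2d6 an SH2-domain protein, and Hpgds the synthase that makes prostaglandin D2. Several of these genes are also used elsewhere in the colon wall: Dclk1 and Avil by neurons, Alox5 by leukocytes, and Alox5, Ltc4s and Hpgds by mast cells. In whole colon, fewer cells of a type and less RNA per cell cannot be told apart.

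A level is the log2 processed signal of a probe minus the log2 of the 75th percentile of its array, so 0 is the signal at that percentile. The 75th percentile lay between 262 and 1003 intensity units, and the share of probes well above background was 62.6% to 71.3%. The median SD of a probe was 0.17 and 0.18 on water in GR iKO and Flox, and 0.34 and 0.26 on DSS, so most probes have wider errors in the DSS groups. The arrays lay on 4 slides, which held mice of several groups each. Nothing in the labels describes the mice further, and p-values measure the spread between these mice. The 4 Nr3c1 probes measured 47.6% to 57.3% of the Flox signal in GR iKO colon on water and 55.2% to 75.7% on DSS. Epithelial RNA was well represented in this whole colon: the mean level of a list of 14 epithelial genes was between 5.03 and 5.29 on each water array. A smooth muscle list had mean levels of 4.05 to 4.73 on the same arrays.

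The regulatory sequence before the start of the genes that the results turn on is shown for Trpm5, whose level was lower on DSS in both genotypes, and for both annotated starts of Dclk1, whose probes did not respond alike. They are RefSeq sequences of build GRCm38.p6, printed 5′ to 3′ on the strand of the gene. The Trpm5 stretch is the 250 bases before its start, on the minus strand at chr7:143094643-143094892. The outer Dclk1 stretch ends at the base before the gene, on the plus strand at chr3:55242114-55242302, and the inner Dclk1 stretch is the 250 bases before a start inside the gene, at chr3:55461478-55461727.
Trpm5: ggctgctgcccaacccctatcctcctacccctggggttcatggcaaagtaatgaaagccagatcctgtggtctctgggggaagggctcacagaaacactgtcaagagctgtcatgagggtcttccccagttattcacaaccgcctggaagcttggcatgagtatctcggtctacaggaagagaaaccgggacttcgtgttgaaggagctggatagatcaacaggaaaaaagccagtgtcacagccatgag
Dclk1, outer start: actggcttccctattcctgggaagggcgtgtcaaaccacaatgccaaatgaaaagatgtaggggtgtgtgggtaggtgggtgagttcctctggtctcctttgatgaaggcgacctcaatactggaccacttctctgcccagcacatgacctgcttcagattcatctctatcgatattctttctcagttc
Dclk1, inner start: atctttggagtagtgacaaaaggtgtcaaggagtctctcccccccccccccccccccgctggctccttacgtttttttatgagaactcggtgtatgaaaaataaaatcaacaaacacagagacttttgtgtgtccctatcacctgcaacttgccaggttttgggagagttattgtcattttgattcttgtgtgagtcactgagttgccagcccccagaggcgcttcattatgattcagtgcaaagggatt

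Promoter windows of 300 bases, from 250 before to 50 after a start, were given for 8 of the 10 genes (9 windows). They were searched on both strands for ATGCAAAT, the octamer bound by POU-domain factors such as Pou2f3, for AGAACA, the core of a glucocorticoid response element, and for the palindromic element itself, in which AGAACA is followed, after any 3 bases, by its reverse complement. The octamer stood in 1 of the 9 windows, that of Hpgds, and in 570 of all 32851 windows (1.74%). It began 174 bases before the annotated start, on the minus strand of chromosome 6, and is shown in capitals with its surroundings at chr6:65144886-65144915.
Hpgds: ctttactctttATGCAAATacgttggacta
The palindrome was in none of the 9 windows and in 0.00913% of all windows, and AGAACA alone was in none of the 9 and in 19% of all. Whether a factor binds any of these sequences was not measured here.

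In the colon of mice on water, Trpm5, Il25, Dclk1, Avil, Alox5, Ltc4s and Hpgds were well above background on all 8 arrays. Pou2f3 was not well above background on any of the 14 arrays, so it was not tested, and no probe matched Gnat3 or Sh2d6. In Flox mice on water the levels of Trpm5 were −1.81, −1.52, −1.82 and −1.81, and in GR iKO mice on water −1.28, −1.33, −1.49 and −1.35. Each GR iKO mouse was thus above each Flox mouse, by 0.37 (SE 0.10) on average. Il25 stood at −4.85, −4.86, −4.97 and −4.97 in Flox and at −4.49, −4.31, −4.87 and −4.53 in GR iKO, a difference of 0.36 (SE 0.12) with 1 GR iKO mouse among the Flox values. Ltc4s was the other gene whose groups did not overlap, with Flox mice at −1.05 ± 0.10 (SD, n = 4) and GR iKO mice at −0.87 ± 0.09 (SD, n = 4). None of these differences passed the test: by limma 0 of the 7 genes was called (smallest adjusted p 1.00), against 1 of 15535 genes (0.00644%) on the array. At an unadjusted p under 0.05 the count was 2 of 7, Trpm5 and Il25, against 2.51% of all genes, and the groups did not overlap for 2 of 7, against 2.39% of all genes. The differences of Dclk1, Avil, Alox5 and Hpgds lay between −0.02 and 0.16. Within the 4 slides, each with 1 water mouse of both genotypes, the Trpm5 difference was 0.31, 0.18, 0.54 and 0.46, and the Il25 difference −0.02, 0.55, 0.48 and 0.44.

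**Figure D1:**
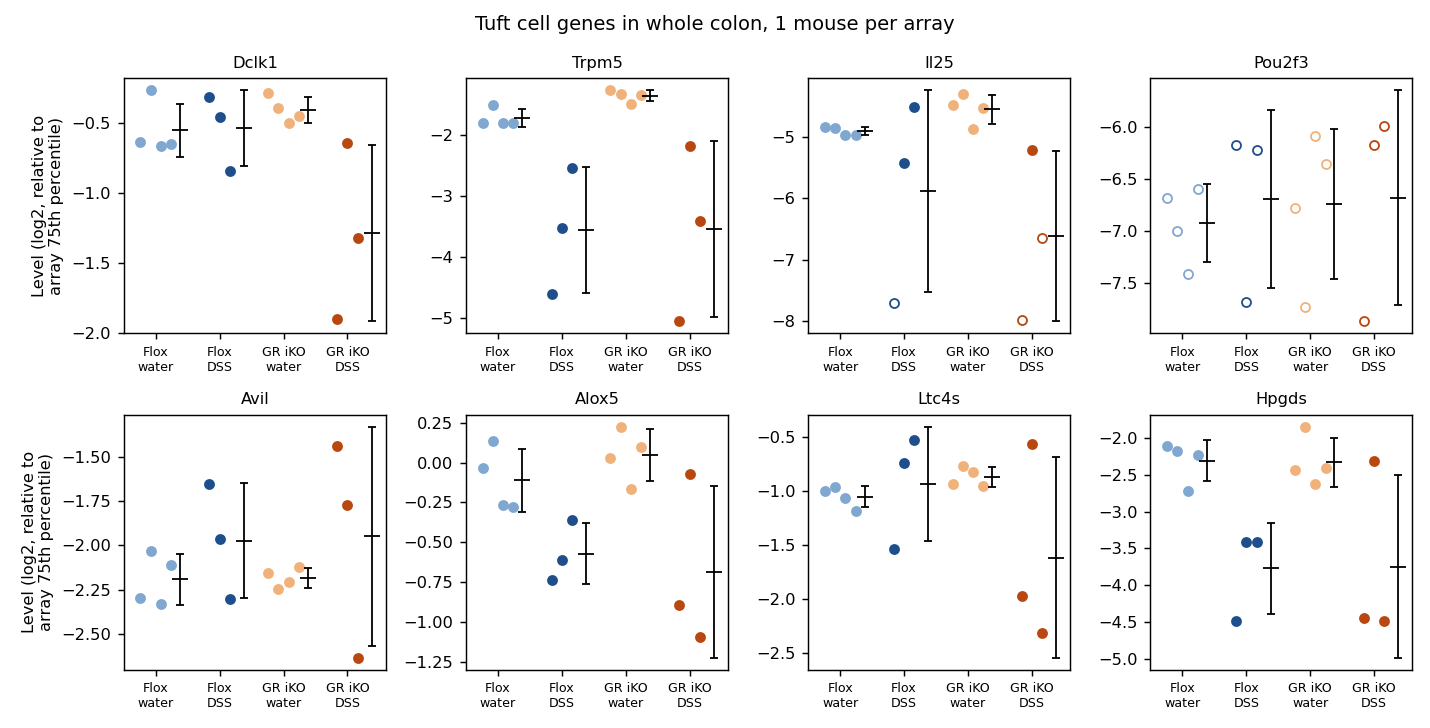
Level of the 8 tuft cell genes with a probe (y axis, log2 signal over the array's 75th percentile, 1 scale per panel) in each mouse of the 4 groups. Points are mice, open points are probes not well above background on that array, and black marks give the group mean and SD; Trpm5 sits between −1.82 and −1.28 in all 8 water mice and between −5.05 and −2.18 in the 6 DSS mice, while Pou2f3 is open throughout.

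DSS lowered Trpm5, the channel at the end of the chemosensory cascade, in both genotypes. Its levels in Flox mice on DSS were −4.60, −3.52 and −2.55, all below the Flox water mice. In GR iKO mice on DSS they were −5.05, −2.18 and −3.41, again all below the water mice of that genotype. The difference was −1.82 (SE 0.55, adjusted p 0.0154) in Flox and −2.18 (SE 0.55, adjusted p 0.00697) in GR iKO, which leaves 28.4% and 22.0% of the water signal. These errors come from a spread shared by all 14 arrays. The SD was 0.15 and 0.09 on water in Flox and GR iKO, but 1.03 and 1.44 on DSS. The errors and p-values therefore understate the spread between DSS mice. With a normexp background correction the difference was smaller, −0.87 (adjusted p 0.0230) in Flox and −1.26 (adjusted p 0.00401) in GR iKO. Within slides it was −2.79, −2.0 and −0.74 in Flox and −0.69, −3.77 and −2.06 in GR iKO. The Flox difference was −1.30 (adjusted p 0.0848) once Flox DSS replicate 1, the lowest mouse, was left out, while the GR iKO call held in all 26 alternatives run.

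Il25, the cytokine that tuft cells send to lymphoid cells, had levels of −7.71, −5.43 and −4.51 in Flox mice on DSS. The first of these was not well above background, and the third lay above all Flox water mice, so the Flox groups overlapped. In GR iKO mice on DSS the levels were −7.99, −5.22 and −6.65, all below the water mice, with 2 of the 3 arrays not well above background. Il25 fell in GR iKO (−2.07, SE 0.67, adjusted p 0.0252), and its Flox difference of −0.97 (SE 0.67, 95% interval −2.44 to 0.49) did not pass the test (adjusted p 0.245). Its probe was dim, at 22.6 to 43.0 intensity units on water arrays and 2.06 to 15.6 on DSS arrays, so the size of the fall depends on how signals near background are treated. With the normexp correction the GR iKO difference was −0.15 (adjusted p 0.58) and the Flox difference 0.40 (adjusted p 0.117). The GR iKO difference was also not called with the slide as a block (−1.97, adjusted p 0.0543), nor without GR iKO DSS replicate 1 (adjusted p 0.117), GR iKO DSS replicate 4 (0.0602) and GR iKO water replicate 2 (0.0542). Within slides it was −2.86, −0.57 and 0.46 in Flox and −0.34, −3.50 and −2.12 in GR iKO.

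**Figure D2:**
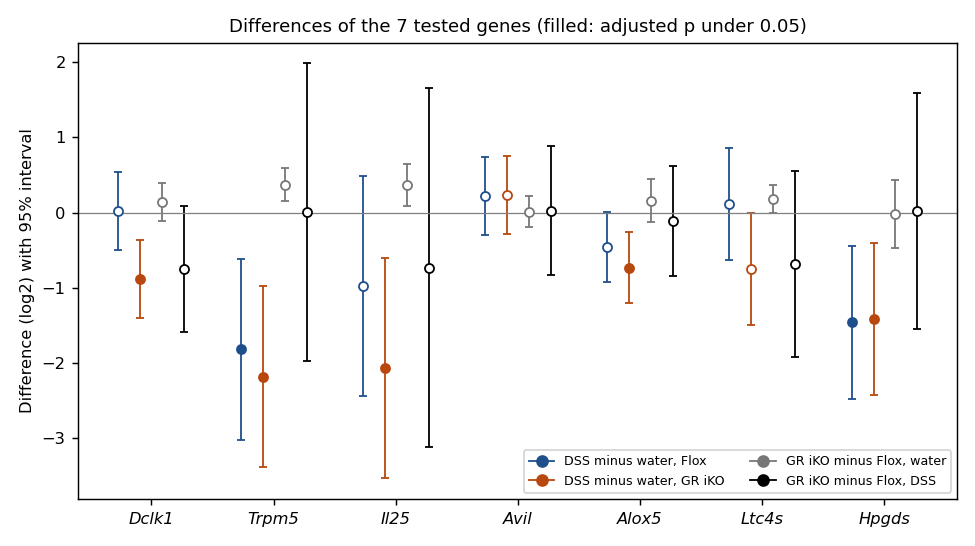
Differences (y axis, log2) of the 7 tested genes between DSS and water in each genotype and between genotypes on each treatment, as points with 95% intervals from limma. Filled points have an adjusted p under 0.05; these are Trpm5 and Hpgds in both genotypes and Dclk1, Il25 and Alox5 in GR iKO alone, and no difference between genotypes is filled.

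Dclk1, the kinase used as the marker of the lineage, is covered by 6 probes, which did not move together. The probe with the highest mean signal, A_52_P563818, had levels of −0.64, −0.27, −0.67 and −0.65 in Flox mice on water and −0.31, −0.46 and −0.84 on DSS. In GR iKO it had −0.29, −0.39, −0.51 and −0.45 on water and −1.90, −0.65 and −1.32 on DSS. The Flox groups overlapped and the GR iKO groups did not. The DSS difference was 0.02 (SE 0.24, 95% interval −0.50 to 0.54) in Flox and −0.88 (SE 0.24, adjusted p 0.0101) in GR iKO, and the fall in GR iKO was called in all 26 alternatives run with this probe. Probes A_51_P193036 and A_51_P270355 also had no call in Flox and a fall in GR iKO, although their GR iKO groups overlapped, with DSS differences of 0.17 and 0.18 in Flox (neither called) and −0.54 and −0.58 in GR iKO (adjusted p 0.0381 and 0.0306).

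Probes A_52_P26991 and A_52_P217807 went the other way. A_52_P26991 carries a different RefSeq transcript of Dclk1 from the other 5 probes. Its levels were −2.87, −3.01, −2.96 and −2.97 in Flox on water and −0.90, −0.93 and −1.73 on DSS, and −2.69, −2.85, −2.78 and −3.30 in GR iKO on water against −2.24, −1.17 and −2.05 on DSS. All DSS mice were above the water mice of their genotype, and the probe rose by 1.76 (SE 0.26, adjusted p 0.000154) in Flox and 1.09 (SE 0.26, adjusted p 0.00512) in GR iKO. A_52_P217807 rose in Flox (1.5, SE 0.29, adjusted p 0.00101), and its difference in GR iKO was 0.67 (SE 0.29, adjusted p 0.0794). The sixth probe, A_52_P21628, was well above background on 6 of 14 arrays and on none of the 3 GR iKO DSS arrays. Dim signals there were raised to the lowest level counted as well above background on their array. That mean was at least 1.40-fold lower than in GR iKO on water and at least 2.48-fold lower than in Flox on DSS, with adjusted p 0.150 and 0.240. Single mice did not all follow, since GR iKO DSS replicate 3, at −5.31, lay above the GR iKO water mice, at −5.42, −6.12, −5.52 and −5.68. The probe was well above background in 2 of the 4 GR iKO water mice and 2 of the 3 Flox DSS mice. Which start site or exon each probe reads was not determined here, because the array was drawn on another genome build. On the same arrays the enteric neuron and glia list, cells in which Dclk1 is also known, was called higher for 10 of 10 tested genes in both genotypes, with Gfap, the intermediate filament of enteric glia, 5.06 higher in Flox and 3.75 higher in GR iKO. The summed signal of the list, in multiples of the 75th percentile, was 3.90 to 5.03 in Flox and 3.88 to 5.42 in GR iKO on water and 21.3 to 37.3 and 13.6 to 17.0 on DSS. The part of these cells in the Dclk1 probes was not tested.

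**Figure D3:**
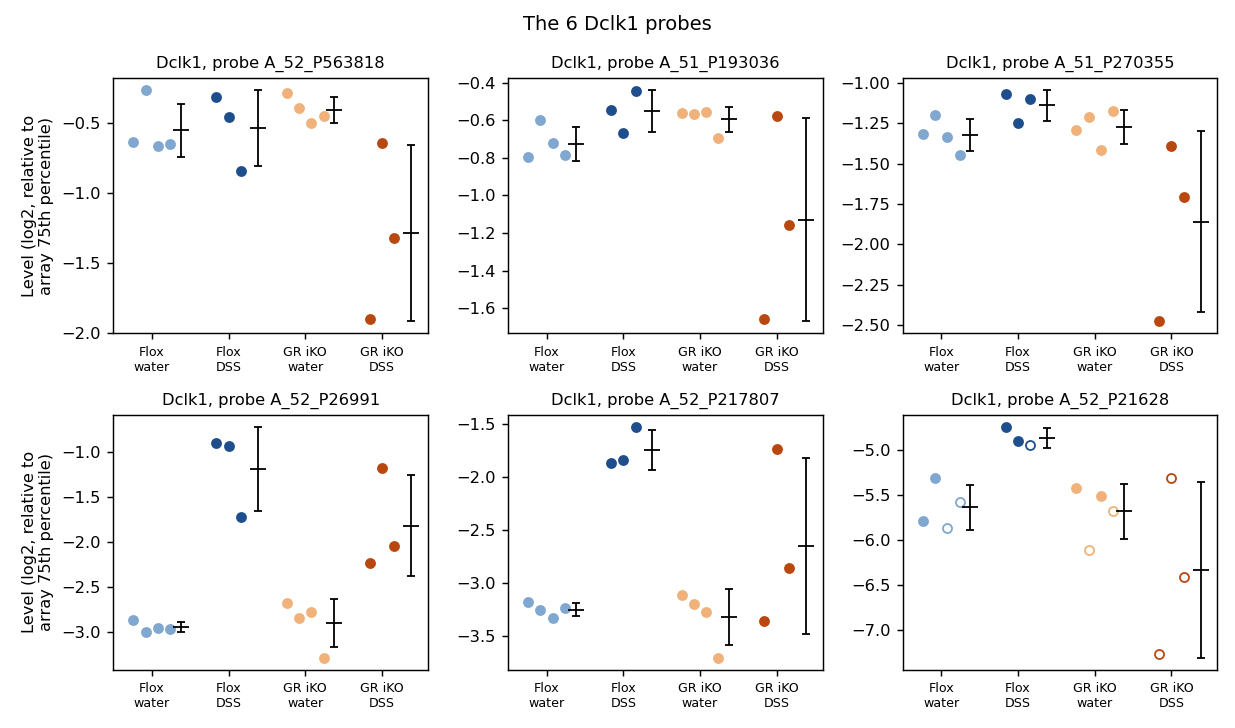
Level of each of the 6 Dclk1 probes (y axis, log2 signal over the array's 75th percentile, 1 scale per panel) in every mouse, with group mean and SD in black and open points where the probe was not well above background. The 3 probes of the upper row are lower in GR iKO on DSS, at −1.29, −1.13 and −1.86 on average, whereas A_52_P26991 is higher on DSS in both genotypes, at −1.19 and −1.82.

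Of the 3 eicosanoid genes, Hpgds was called lower on DSS in both genotypes, with calls that several settings ended, Alox5 was called lower in GR iKO, and Ltc4s was not called in either. Hpgds, the prostaglandin D2 synthase, was at −2.10, −2.18, −2.72 and −2.23 in Flox on water and −4.48, −3.41 and −3.42 on DSS. In GR iKO it was at −2.43, −1.85, −2.62 and −2.41 on water and −4.44, −2.31 and −4.48 on DSS. All Flox DSS mice were below the Flox water mice, whereas GR iKO DSS replicate 3 lay within the range of the water mice. Hpgds decreased by 1.46 (SE 0.47, adjusted p 0.0191) in Flox and by 1.42 (SE 0.47, adjusted p 0.0262) in GR iKO on the log2 scale, to 36.3% and 37.5% of the water signal. Within slides the difference was −2.38, −1.23 and −1.18 in Flox and 0.31, −2.01 and −2.07 in GR iKO. With normexp neither difference was called (−0.46, adjusted p 0.131, in Flox and −0.56, adjusted p 0.0970, in GR iKO), and with the slide as a block the GR iKO difference was −1.29 (adjusted p 0.0546). The Flox call was lost without Flox DSS replicate 1 (−1.10, adjusted p 0.0957), and the GR iKO call without GR iKO DSS replicate 1 (adjusted p 0.108), GR iKO DSS replicate 4 (0.118) or GR iKO water replicate 2 (0.0671).

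Alox5, the 5-lipoxygenase that begins leukotriene synthesis, was at −0.03, 0.13, −0.27 and −0.28 in Flox on water and −0.74, −0.61 and −0.36 on DSS, with no overlap. In GR iKO it was at 0.03, 0.22, −0.17 and 0.10 on water and −0.89, −0.07 and −1.09 on DSS, with GR iKO DSS replicate 3 again inside the water range. It fell in GR iKO (−0.73, SE 0.22, adjusted p 0.0156), and its Flox difference of −0.46 (SE 0.22, adjusted p 0.0924) was not called. A second Alox5 probe was called in both genotypes (−0.61, adjusted p 0.0201, and −0.73, adjusted p 0.00966), and the third in GR iKO (−0.93, adjusted p 0.00426) but not in Flox (−0.48, adjusted p 0.0844). The GR iKO call of the first probe was lost without GR iKO DSS replicate 1 (adjusted p 0.0568) or replicate 4 (0.0760), and its Flox difference was called without GR iKO DSS replicate 3, whose omission narrows the shared error (adjusted p 0.0171).

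Ltc4s, which joins glutathione to leukotriene A4, was at −0.99, −0.96, −1.06 and −1.18 in Flox on water and −1.53, −0.74 and −0.53 on DSS, a difference of 0.12 (SE 0.34, adjusted p 0.797). In GR iKO it was at −0.93, −0.77, −0.82 and −0.95 on water and −1.97, −0.56 and −2.31 on DSS. The GR iKO difference of −0.75 (SE 0.34, 95% interval −1.49 to −0.00) had an adjusted p of 0.0966, and without GR iKO DSS replicate 3 it was −1.27 (adjusted p 0.00124). In both genotypes the DSS mice of Ltc4s lay on both sides of the water mice.

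Avil, which encodes the actin-binding protein advillin, was not called on DSS in either genotype. Its levels were −2.30, −2.03, −2.33 and −2.11 in Flox on water and −1.65, −1.97 and −2.30 on DSS, and −2.15, −2.25, −2.21 and −2.12 in GR iKO on water and −1.44, −1.77 and −2.64 on DSS. The DSS difference was 0.22 (SE 0.24, 95% interval −0.29 to 0.73) in Flox and 0.23 (SE 0.24, 95% interval −0.28 to 0.75) in GR iKO. Without GR iKO DSS replicate 4, the lowest mouse, the GR iKO difference was 0.58 (adjusted p 0.0207).

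Counted together, 2 of the 7 tested genes were called lower and 0 higher on DSS in Flox, where 54.3% of all 15535 genes were called in either direction and 26.9% lower. In GR iKO 5 of 7 were called lower and 0 higher, where 47.1% of all genes were called and 22.6% lower. The groups did not overlap for 3 of 7 genes in both comparisons, against 59.9% of all genes in Flox and 49.2% in GR iKO. The median difference of the 7 genes was −0.46 in Flox and −0.88 in GR iKO, against −0.03 and −0.00051 for all genes. The Flox count of 2 was therefore not above the share of the whole array, since DSS moved about as many genes on the array as it left uncalled. All of this holds for levels taken against the 75th percentile. When arrays were scaled to 7 spike-in transcripts instead, the median of all probes was −2.41 in Flox and −0.95 in GR iKO, all 7 genes were called lower in Flox, and relative to that median Dclk1 differed by 0.10, Avil by 0.31 and Ltc4s by 0.20 there. The counts rested on individual mice. Without Flox DSS replicate 1 the Flox count was 0, and it was 3 without GR iKO DSS replicate 3. The GR iKO count was 2 without GR iKO DSS replicate 1 and 6 without replicate 3. It was 3 without replicate 4, of which 1 (Avil) was higher, and 3 without GR iKO water replicate 2.

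On DSS, no tested gene was called different between the genotypes. By limma on the 6 DSS arrays 0 of 7 genes was called, at an unadjusted p under 0.05 also 0 of 7, and 0% of all genes was called (17.2% at an unadjusted p under 0.05). By the probe that represents each gene, the groups did not overlap for 0 of 7 genes, against 24.3% of all genes. For 2 other Dclk1 probes they did not overlap, with all GR iKO mice below the Flox mice: A_51_P270355 differed by −0.72 (adjusted p 0.311), and A_52_P21628 was not well above background in GR iKO. The GR iKO minus Flox difference of Dclk1 probe A_52_P563818 was −0.75 (95% interval −1.59 to 0.09), that of Il25 −0.73 (−3.12 to 1.65) and that of Ltc4s −0.68 (−1.92 to 0.55). Trpm5, Avil, Alox5 and Hpgds differed by −0.11 to 0.03, with intervals as wide as −1.97 to 1.98 for Trpm5 and −1.54 to 1.60 for Hpgds. Such intervals leave room for differences of several fold in either direction. Within the 2 slides with DSS mice of both genotypes, the difference was 2.42 and −0.86 for Trpm5 and 2.49 and −2.13 for Il25, so the slides did not point the same way.

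The difference between the DSS responses of the genotypes was tested directly as an interaction, which is positive where GR iKO responded more upward than Flox. It was called for 0 of 7 genes (1 of 7 at an unadjusted p under 0.05), against 0.103% of all genes (20.7% at an unadjusted p under 0.05). The gene below that unadjusted threshold was Dclk1, whose probe A_52_P563818 responded by 0.90 less in GR iKO (−0.90, SE 0.34, adjusted p 0.179). The 5 Dclk1 probes well above background on all arrays had negative interactions between −0.68 and −0.90, none called, including the probes that rose in Flox. With spike-in scaling, which moved the median interaction of all probes to 1.42, that of A_52_P563818 was 0.50. The interaction was −0.36 (SE 0.78) for Trpm5, −1.10 (SE 0.95) for Il25 and −0.86 (SE 0.49) for Ltc4s. Without GR iKO DSS replicate 3, the interaction was called for Dclk1 (−1.22, adjusted p 0.0259) and Ltc4s (−1.39, adjusted p 0.0282). The falls of Dclk1, Il25 and Alox5 that were called in GR iKO alone were thus not shown to differ from the Flox response.

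All 7 genes had a larger SD on DSS than on water in both genotypes, except Alox5 in Flox, whose SD on DSS was 0.963 times that on water. The SD of Trpm5 was 0.15 and 0.09 on water in Flox and GR iKO and 1.03 and 1.44 on DSS, and that of Hpgds rose from 0.28 and 0.33 to 0.62 and 1.24. In GR iKO DSS replicate 1 the remaining signal, as a percentage of the water mean of the genotype, was 7.77% for Trpm5, 35.5% for Dclk1, 46.6% for Ltc4s and 23.1% for Hpgds. In GR iKO DSS replicate 3 it was 56.8% for Trpm5, 84.9% for Dclk1, 124% for Ltc4s and 101% for Hpgds. Replicate 4 stood at 24.3%, 53.1%, 36.7% and 22.5% for the same genes. Il25 was not well above background in GR iKO DSS replicates 1 and 4 and in Flox DSS replicate 1, so no remaining share is given for them, and replicate 3 had 63.0%. Among Flox DSS mice, replicate 1 was lowest for Trpm5 (13.8%) and Hpgds (22.2%) but highest for Dclk1 (118%, against 107% and 82.0%) and Avil (146%, against 117% and 92.7%).

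The epithelial list did not follow the order of Trpm5, and the goblet cell list did so in GR iKO. The goblet cell list stood −2.15, −0.93 and −1.66 from the water mean in GR iKO DSS replicates 1, 3 and 4 and −3.03, −3.17 and −0.41 in Flox DSS replicates 1, 2 and 4. The enteroendocrine list stood at −0.52, 0.35 and −0.90 in the GR iKO mice. The mean level of the epithelial list relative to the water mice was −0.31, −0.00 and 0.28 in GR iKO DSS replicates 1, 3 and 4, and −0.51, −0.73 and −0.12 in Flox DSS replicates 1, 2 and 4. The neutrophil list stood 7.76, 5.70 and 6.70 above water in the GR iKO DSS mice and 4.97, 4.33 and 4.00 in the Flox DSS mice, so the mouse with the most neutrophil signal in each genotype had the least Trpm5. With 3 mice per group this is a description of single mice, and the part of injury severity was not tested.

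After the mean of each group was subtracted, the deviations of most genes over the 14 arrays were positively correlated, given here as a description because the mice share arrays, slides and scaling. Trpm5 and Il25 had a Pearson r of 0.95 (Spearman rho 0.84), Ltc4s and Hpgds 0.93 (0.89), Alox5 and Hpgds 0.90 (0.80), and Alox5 and Ltc4s 0.87 (0.78). Trpm5 and Il25 correlated with these 3 eicosanoid genes at 0.66 to 0.80. Il25 was not well above background in Flox DSS replicate 1 and GR iKO DSS replicates 1 and 4, which limits its correlations. Dclk1 correlated with the other genes at 0.06 to 0.57. Avil had r between −0.48 and 0.21 with all of them. The genes on the array most like the mean deviation of the measured lineage genes (Dclk1, Trpm5, Il25 and Avil) were Rflna (r 0.96), Slc9a3r2 (0.93), Matk (0.92), Gpr20 (0.92), Wif1 (0.92), Abcc2 (0.92), Tek (0.92), Camk2g (0.91), Slc18a1 (0.91) and Slc36a4 (0.91). Without the 2 arrays farthest from the median, these values lay between 0.55 (Tek) and 0.82 (Rflna and Wif1). Matk, a Csk-type kinase, was also on the list of other tuft-enriched genes.

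**Figure D4:**
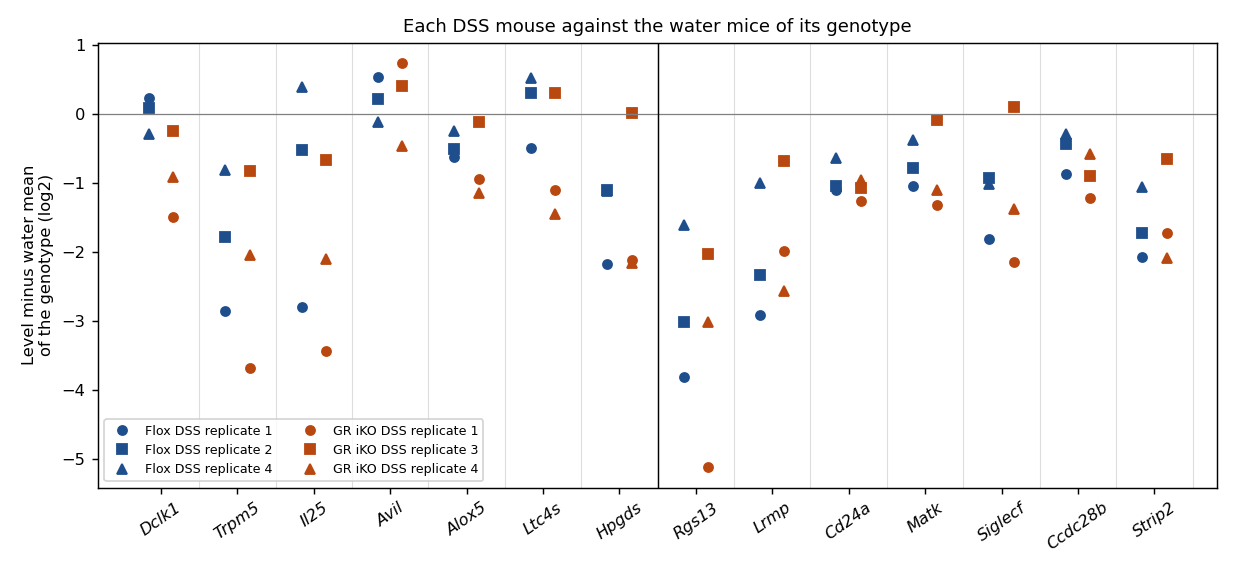
Level of each DSS mouse minus the water mean of its genotype (y axis, log2), for the 7 tested genes (left of the black line) and 7 other tuft-enriched genes called lower in both genotypes (right). Blue symbols are Flox and orange symbols GR iKO mice; GR iKO DSS replicate 3 (orange squares) stays near 0 for Hpgds (0.02), Alox5 (−0.12) and Matk (−0.09), where replicates 1 and 4 are lower.

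Of a list of 25 other genes known to be enriched in tuft cells, 23 were tested. On DSS 9 were called lower and 4 higher in Flox, and 7 lower and 5 higher in GR iKO, with medians of −0.53 and −0.56. Over all genes 26.9% were called lower and 27.4% higher in Flox and 22.6% and 24.5% in GR iKO. Of the 23 genes, 7 were called lower in both genotypes, and 2 were called higher in both. The share of all genes called the same way in both genotypes is not given here. These 2 counts are therefore not read against the array. Rgs13, a regulator of G protein signalling, fell by 2.81 (adjusted p 0.00234) in Flox and by 3.39 (adjusted p 0.000932) in GR iKO, from between −0.90 and 0.00 on the 8 water arrays to −4.45, −3.65 and −2.25 in Flox and −5.38, −2.28 and −3.28 in GR iKO on DSS. Lrmp, a membrane protein of the endoplasmic reticulum, fell by 2.08 and 1.74, and Strip2 by 1.62 and 1.49. The other 4 of the 7, named after their values were seen, were Siglecf (−1.25 and −1.14), Cd24a (−0.92 and −1.09), Matk (−0.73 and −0.84) and Ccdc28b (−0.53 and −0.90). Siglecf is also an eosinophil receptor, and the eosinophil granule gene Prg2 was 4.03 lower in Flox and 2.89 lower in GR iKO on DSS. The B and plasma cell list stood −3.83, −3.03 and −1.20 from the water mean in Flox DSS replicates 1, 2 and 4. In GR iKO DSS replicates 1, 3 and 4 it stood at −0.83, −0.35 and −2.75. Lrmp stood at −2.91, −2.34 and −0.99 and at −1.98, −0.68 and −2.57 in the same mice. The part of these cells in Lrmp and the other genes that fell was not tested.

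Of the tuft-enriched genes, Cd300lf and Fyb rose in both genotypes. Cd300lf, a receptor of myeloid cells, rose by 2.00 in Flox and 3.21 in GR iKO (adjusted p 2.69e-05 and 2.27e-06), and Fyb, an adaptor of lymphocytes and myeloid cells, by 1.31 and 1.93. On the same arrays 9 of 11 neutrophil genes were called higher in Flox and 11 of 11 in GR iKO, and 8 and 9 of 12 macrophage genes. Of all genes 27.4% were called higher in Flox and 24.5% in GR iKO. The summed neutrophil signal was 0.254 to 0.562 in Flox and 0.276 to 0.785 in GR iKO on water, and 25.1 to 69.3 and 87.0 to 301 on DSS, and that of the macrophage list 19.8 to 24.4 and 18.6 to 28.3 on water against 34.5 to 64.4 and 49.0 to 97.4 on DSS. The part of these cells in Cd300lf and Fyb was not tested. Sucnr1, the succinate receptor, was at −4.23, −4.27, −4.21 and −4.27 in Flox on water and −3.49, −1.23 and −2.91 on DSS, all above the water mice, and rose by 1.70 (adjusted p 0.0235). In GR iKO it was at −4.57, −4.06 and −6.51 on DSS, a difference of −0.95 (adjusted p 0.192), and the interaction of −2.65 was not called. Chat and Il17rb were not well above background on enough arrays to be tested.

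**Figure D5:**
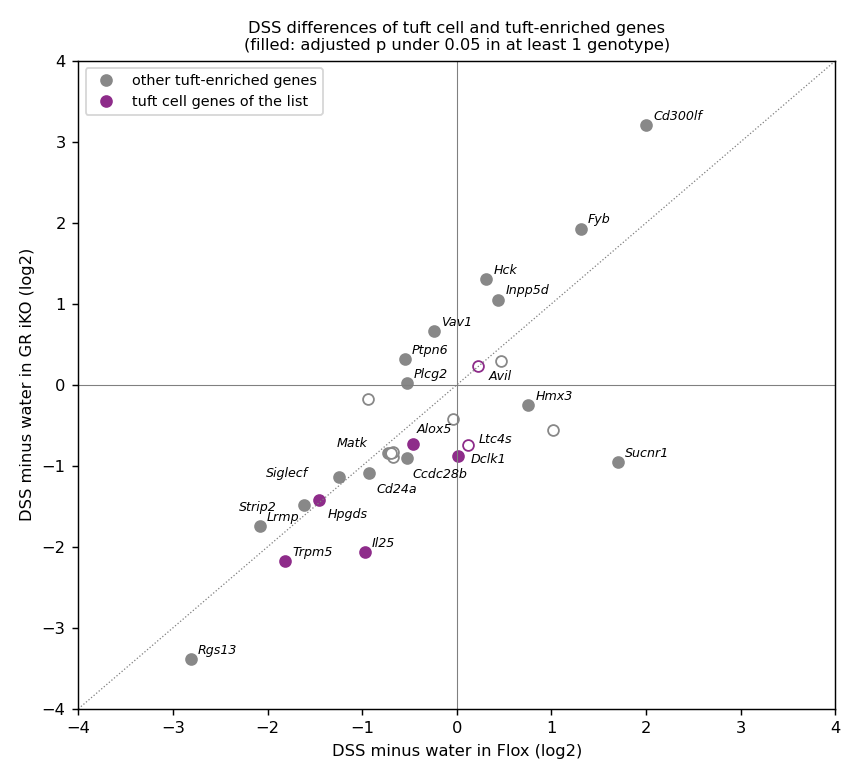
Difference between DSS and water (log2) in Flox (x axis) and GR iKO (y axis) for the 7 tested tuft cell genes and 23 other tuft-enriched genes, with the dotted line at equal differences. Filled points have an adjusted p under 0.05 in at least 1 genotype; Rgs13 (−2.81 and −3.39) lies at the lower left with Trpm5, and Cd300lf (2.00 and 3.21) at the upper right.

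Other members of the taste-type cascade did not share one direction. Of 10 genes, 2 were called lower and 2 higher on DSS in Flox and 3 lower and 3 higher in GR iKO, with medians of −0.17 and 0.33. These shares lie near the 26.9% lower and 27.4% higher of all genes in Flox and the 22.6% and 24.5% in GR iKO. Gnb3, a G protein beta subunit, rose by 2.71 and 1.70, and Gnai2, an inhibitory alpha subunit of many cells, by 0.87 and 0.86. Itpr2, a calcium channel opened by inositol trisphosphate, fell by 0.89 in both genotypes, and Trpm4, the calcium-activated channel related to Trpm5, fell by 0.96 and 0.71. Gng13, the gamma partner of gustducin, fell in GR iKO (−1.79, adjusted p 0.0254) and differed by −0.91 in Flox (adjusted p 0.209). Gng13 was at −3.75, −3.35, −3.57 and −3.92 in Flox on water and −4.46, −4.45 and −4.78 on DSS, with no overlap. GR iKO DSS replicates 1, 3 and 4 stood at −7.41, −4.03 and −4.57, with 2 of these arrays well above background. Replicates 3 and 4 kept 71.4% and 49.4% of the water signal, beside 57.0%, 57.6% and 45.8% in the Flox DSS mice. The size of the GR iKO fall thus rests largely on replicate 1. The Gng13 interaction of −0.88 was not called (adjusted p 0.609). Gnb1 was 0.45 higher in GR iKO alone (adjusted p 0.011), which was not shown to differ from Flox since its interaction was not called.

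The enzymes and receptors around the leukotriene and prostaglandin D2 branches moved both ways. Of 10 tested genes, 5 were called higher and 3 lower in Flox and 4 higher and 3 lower in GR iKO, with medians of 0.67 and 0.29, beside 27.4% higher and 26.9% lower of all genes in Flox and 24.5% and 22.6% in GR iKO. Alox5ap, which presents arachidonic acid to Alox5, rose by 1.38 and 2.16 while Alox5 itself did not rise, and the cyclooxygenases Ptgs2 (1.83 and 4.22) and Ptgs1 (1.40 and 1.05) rose. Ptgds, the second prostaglandin D2 synthase, rose by 0.89 and 0.78 where Hpgds fell. Hpgd, which inactivates prostaglandins, fell by 1.72 and 2.25, Pla2g4a, the phospholipase that frees arachidonic acid, by 1.06 and 0.78, and Lta4h, which makes leukotriene B4 from leukotriene A4, by 1.04 and 0.90. Cysltr1, a cysteinyl leukotriene receptor, rose by 0.88 in Flox (adjusted p 0.0122), with 0.50 in GR iKO (adjusted p 0.133). Mast cells, which use Hpgds, Ltc4s and Alox5, were covered by a list of 11 genes of which 7 were tested. In Flox, 3 were called higher (Hdc, Mcpt4 and Cpa3) and 1 lower (Cma1), and in GR iKO 1 was called higher (Hdc) and 0 lower. Hdc, histidine decarboxylase, was 4.46 and 6.31 higher, and Cma1, a mast cell chymase, was 1.42 lower in Flox. The summed mast cell signal was 0.880 to 1.54 in Flox and 0.721 to 1.23 in GR iKO on water and 1.66 to 3.25 and 3.31 to 10.2 on DSS, a sum in which Hdc had the highest level of the 7 genes on DSS (mean 0.65 in Flox and 2.45 in GR iKO) and which therefore mostly follows that gene, while Ms4a2 and Tpsb2 were too dim to be tested. The part of mast cells in the 3 eicosanoid genes was not tested.

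The partners of Il25 in the circuit to interleukin 13 rose or were not called. Of 15 tested genes, 6 were called higher and 0 lower in Flox and 10 higher and 0 lower in GR iKO, where 27.4% and 24.5% of all genes were called higher, with medians of 0.93 and 0.99. Il33, an alarmin of stromal and epithelial cells, rose from between −1.15 and −0.85 on water to 3.50, 3.40 and 2.81 in Flox and 4.44, 3.26 and 2.48 in GR iKO on DSS, by 4.25 and 4.43. Its receptor Il1rl1 rose by 2.23 and 4.61, Areg, an EGF receptor ligand, by 2.59 and 2.90, and Il4ra, a receptor chain for interleukin 4 and interleukin 13, by 2.08 and 2.62. Crlf2, a receptor chain for thymic stromal lymphopoietin, rose by 1.44 (adjusted p 4.23e-05) in Flox and by 1.79 (adjusted p 3.94e-05) in GR iKO, where replicate 3 on DSS had no value and 2 DSS mice entered the fit. Gata3, a transcription factor of type 2 lymphocytes, rose in GR iKO (2.71, adjusted p 0.005) and differed by 1.63 in Flox (adjusted p 0.0507). The cytokine Il13 itself was 0.56 higher in Flox and 0.19 lower in GR iKO on DSS (adjusted p 0.222 and 0.705), and Il4 differed by 0.21 and 0.11 (adjusted p 0.687 and 0.852). Il5, Il9 and Il17rb, the receptor chain that binds interleukin 25, were too dim to be tested.

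Other epithelial lineages were counted for comparison. Of 9 crypt stem cell genes 6 were called lower and 1 higher in Flox and 6 and 0 in GR iKO, with medians of −1.5 and −1.17. Of 10 goblet cell genes 5 were called lower in Flox and 2 in GR iKO, with 0 higher in both (medians −1.68 and −0.91). Of 12 enteroendocrine genes 6 were called lower and 2 higher in Flox and 0 and 2 in GR iKO (medians −1.40 and −0.48), and of 10 colonocyte genes 2 were called lower and 1 higher in Flox and 3 and 1 in GR iKO (medians −0.62 and −0.58). Over all genes 26.9% were called lower in Flox and 22.6% in GR iKO. The general epithelial list had 6 of 14 genes called lower and 2 higher in Flox (median −0.43) and 2 lower and 2 higher in GR iKO (median 0.03). Its summed signal on DSS, 972 to 1669 in Flox and 1236 to 1749 in GR iKO, overlapped that on water, 1232 to 1485 and 1272 to 1504. With a scaling to the epithelial list itself, the DSS differences of Trpm5 were called in both genotypes, and Hpgds was at −1.01 in Flox (adjusted p 0.0987). Whether the tuft cell genes fell more than these lists was not tested.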

How the data were processed

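Colon RNA of 14 mice was labelled with Cy3 and hybridised to 1-colour Agilent arrays. Per the file headers, the deposited intensity values (processed signals) were extracted with Agilent Feature Extraction 12.0.0.7, which subtracts background. The deposited value table holds log2 values by the authors, with an equal median on all arrays. Their lowest correlation to log2 processed signal on any array was 0.9988. Partek 6.6 is named in the submitters' processing notes. Here, 1639 of 45018 spots (controls) were left out, spots of a probe were averaged (41174 probes), and log2 processed signal minus the 75th percentile of the array was taken. A probe was tested if well above background on at least 3 arrays (29528 probes). The tested probe with the highest mean level represented a gene.

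limma 3.58.1 in R 4.3.3 (lmFit, eBayes) was fitted across all tested probes, with Benjamini-Hochberg adjustment and calls at 0.05. DSS effects and the interaction used all 14 arrays, and genotype effects used the 8 water or 6 DSS arrays. The DSS and interaction tests thus pooled the spread of water and DSS arrays. For genes with a larger SD on DSS, the shared error can understate the spread between DSS mice, mainly in GR iKO, where it was mostly wider. In Flox the shared error can also be too wide. With only the 7 Flox arrays the adjusted p by limma was 0.00615 for Hpgds and 0.0385 for Alox5. Scripts were tested on simulated data. Alternatives were another background correction (normexp with an offset of 50, on median spot signals), normalisation, scaling, filter, block, weighting or probe, and leaving out each array.

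The members, lists and tests were chosen with earlier results of these data known. Besides all members, the rule named the called genes of largest difference (at most 5 in a related list and 3 in a cell type list, per comparison) and the 10 genes most correlated with the lineage members. Ptgds, Lta4h, Cysltr1, Il13, Il4 and the genes marked in the text were named after their values were seen. Array number limits the precision.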

Additional observations from a re-analysis of the deposited data

Results flagged for a closer look

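In 28 sets of 4 water mice (a probe in a genotype), the gap between the outermost mouse and its nearest neighbour was divided by the range of the set, with Dixon's 95% limit, which chance passes in about 1 in 20 sets. Flox water replicate 2 stood apart for Trpm5, at −1.52 against −1.82 to −1.81 (ratio 0.968), and for Dclk1 probe A_52_P563818, at −0.27 against −0.67 to −0.64 (ratio 0.929). GR iKO water replicate 4 stood apart for Dclk1 probe A_51_P193036, at −0.69 against −0.57 to −0.55 (ratio 0.910).

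For Dclk1 probe A_51_P270355, all 3 Flox DSS mice lay above the mean of the Flox water mice and all 3 GR iKO DSS mice below that of the GR iKO water mice. The difference between the responses was −0.77, and its interaction test did not pass (adjusted p 0.170).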

How the results depend on the processing

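The count of 2 tuft cell genes called on DSS in Flox was 1 with normexp background correction (Hpgds −0.46, adjusted p 0.131), 1 with scaling to the epithelial list, 7 with spike-in scaling and 5 with array quality weights (1 higher). The count of 5 in GR iKO was 3 with normexp, 3 with the slide as a block (Il25 −1.97, adjusted p 0.0543, and Hpgds −1.29, adjusted p 0.0546, were lost) and 3 with only the 7 GR iKO arrays. The interaction count of 0 was 1 with array quality weights (Dclk1 −1.09, adjusted p 0.0298). Leaving out 1 array gave 0 to 3 calls in Flox, 2 to 6 in GR iKO and 0 to 2 for the interaction. Both genotype comparisons stayed at 0 calls in every alternative run. With spike-in scaling Dclk1 (−2.30), Avil (−2.10) and Ltc4s (−2.20) turned negative in Flox, where the median of all probes was −2.41. In GR iKO, Dclk1 turned positive by probe A_52_P217807 (0.67) and A_52_P26991 (1.09). The share of all called probes that were higher in Flox was 46.4%, 65% with normexp, 1.21% with spike-in scaling and 80.4% with epithelial scaling, and in GR iKO 49.4%, 7.06% with spike-in scaling. Same-numbered mice did not pair (correlations of deviations −0.23 to 0.31), and a replicate block gave 2 calls in Flox and 4 in GR iKO (Hpgds −1.32, adjusted p 0.0525). Causes were not tested. Il25 and Dclk1 probe A_52_P21628 lie near background, which limits their values.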
